A study of Rattus norvegicus with 92 samples.

Results

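The adrenal gland holds an outer cortex, whose cells make steroid hormones from cholesterol, and an inner medulla, whose chromaffin cells make catecholamines. In rats the main glucocorticoid of the cortex is corticosterone, and both hormone systems are known to be activated by inhaled irritants. Each of the 2 layers relies on enzymes, carriers and receptors that few other organs express, so that a set of transcripts is far more abundant in adrenal than elsewhere. Acrolein is a reactive unsaturated aldehyde of smoke and air pollution that irritates the airways.

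The rows described here are the transcripts that were restricted to adrenal in air-exposed rats. CPM values (each value as a share of the total of its sample, scaled by the same factor in all samples) were averaged over the air samples of each tissue. A row was kept when its mean adrenal CPM was at least 10 and at least 10 times its mean in each of the 7 other tissues. There were 71 such rows among the 20508 rows of each table, 70 under Ensembl transcript identifiers and 1 under a gene identifier. By the same limits 14 rows were restricted to hippocampus, 18 to hypothalamus, 47 to adipose, 77 to lung, 169 to nasal epithelium, 179 to muscle and 338 to liver. The rows were chosen by their air CPM, so those levels are given as a description. The acrolein samples had no part in the choice.

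The samples came from adult male Wistar-Kyoto rats that breathed filtered air (0 ppm) or acrolein at 3.16 ppm, reached in rising steps, in a 4 h nose-only exposure followed at once by necropsy. Messenger RNA was sequenced in 92 samples of 8 tissues: adrenal, adipose, hippocampus, hypothalamus, liver, lung, muscle and nasal epithelium. Adrenal was represented by 6 air samples (replicates 2, 3, 5, 6, 7 and 8) and 4 acrolein samples (replicates 9, 10, 11 and 12). The adrenal libraries held between 6665417 and 16918736 reads, and 67 of the 71 rows had at least 30 reads in every adrenal. Depth differed with exposure, from 6665417 to 12808143 reads in air (median 8980830) and from 8689497 to 16918736 in acrolein (median 14301148). The tables carry identifiers without gene symbols, and none of the 71 could be matched to a symbol in the RefSeq table used, so rows are referred to by rank of adrenal air CPM, and the layer or cell type they belong to was not assigned. For the same reason the tissue labels were not checked against known marker genes.

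Adrenal-restricted rows made up a large share of adrenal messenger RNA, and a few carried most of it. Mean air CPM ranged from 10.2 to 20225 with a median of 199. At least 1000 CPM was reached by 18 rows, 24 lay between 100 and 1000 CPM, and 29 were below 100 CPM. The 18 highest held 92.0% of the summed CPM of the set, and the 2 highest, at 20225 and 16309 CPM, held 36.0%. The ratio of adrenal to the highest other tissue ran from 10.03 to 1083 with a median of 24.4, and 17 rows were at least 100 times higher in adrenal. The nearest row outside the CPM limit was at 9.72 CPM, and the nearest outside the ratio limit was 9.98 times higher in adrenal. The highest other tissue was adipose for 19 rows, nasal epithelium and hypothalamus for 13 each, lung for 10, liver for 8, and muscle and hippocampus for 4 each.

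**Figure D1:**
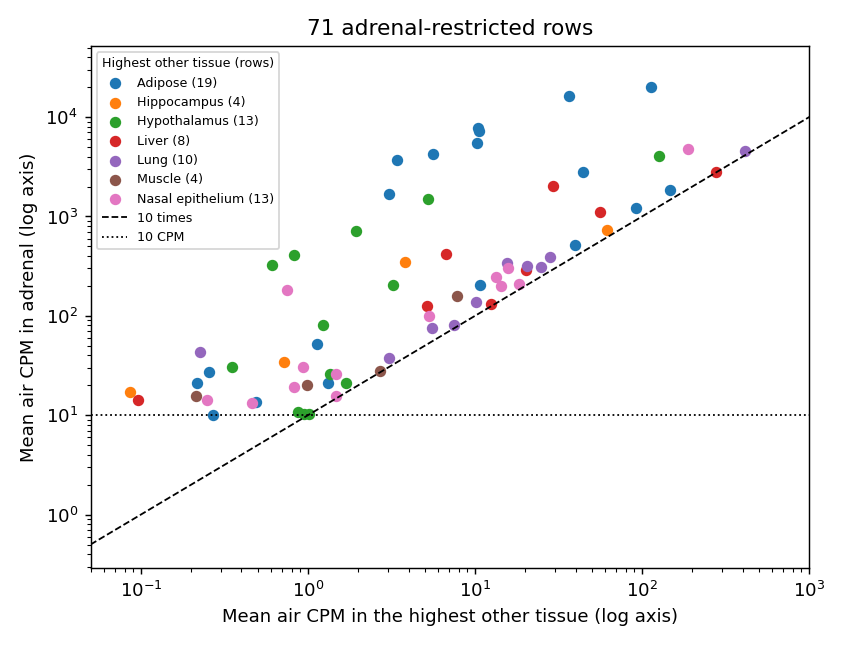
Mean air CPM of the 71 adrenal-restricted rows in adrenal (vertical, log axis) against the highest of the 7 other tissues (horizontal, log axis), 1 point a row, coloured by that other tissue. Points lie on or above the dashed line at 10 times and the dotted line at 10 CPM, the limits that chose them, and 19 rows have adipose as the highest other tissue.

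Of the 71 rows, 61 also met both limits when the acrolein samples of all tissues were used in place of the air samples, and 73 rows met them there. Adrenal restriction therefore held for most of the set in samples that had not chosen it.

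Summed over the 71 rows, the air adrenals gave 12.8, 8.04, 7.60, 10.8, 9.95 and 11.8% of all reads (replicates 2, 3, 5, 6, 7 and 8). The acrolein adrenals gave 9.98, 12.1, 12.4 and 13.99% (replicates 9 to 12). The groups overlapped: 3 of the 4 acrolein samples lay above 5 of the 6 air samples, and air replicate 2 lay above all but acrolein replicate 12. The means were 10.2 ± 2.06% (SD, n = 6) in air and 12.1 ± 1.65% (SD, n = 4) in acrolein. In bulk samples, fewer cells of a type and less RNA per cell cannot be told apart.

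In the other tissues the same rows were a trace. Summed CPM lay between 943 and 1383 in adipose, 852 and 1300 in lung, 545 and 820 in liver, 539 and 717 in hypothalamus, 593 and 650 in hippocampus, and 225 and 348 in muscle. In nasal epithelium it ran from 792 to 1333 in 5 air samples and from 877 to 2293 in 6 acrolein samples, with medians of 967 and 1738.

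**Figure D2:**
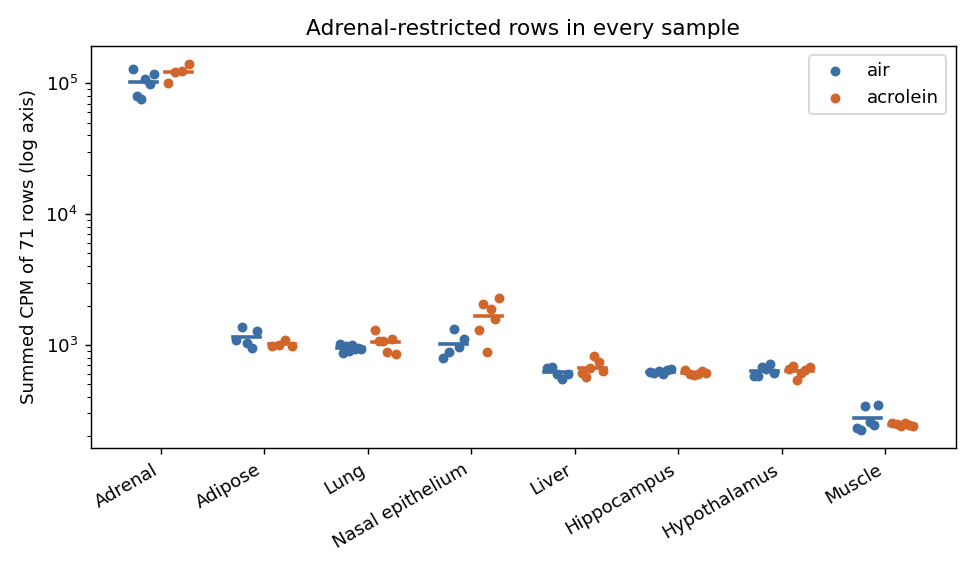
Summed CPM of the 71 adrenal-restricted rows (vertical, log axis) in each sample of 8 tissues, air in blue and acrolein in orange, with a horizontal line at each group mean. Adrenal samples lie between 75957 and 139932 CPM and no sample of another tissue exceeds 2293 CPM.

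Whether acrolein altered adrenal-restricted transcripts within the adrenal itself was asked with limma, fitted to log2(normalized count + 1) over all 19411 rows that passed a filter on zeros. A normalized count is a read count divided by the size factor of its library. All 71 rows passed the filter. A call needed a Benjamini-Hochberg adjusted p no higher than 0.1 and a change of more than 1.2-fold in either direction. Limma called none of the 71, beside a background of 0.0% of all rows. At an unadjusted p under 0.05 there were 6 rows of the set (8.45%), beside 7.54% of all rows. All 6 were higher in acrolein, as were 3.32% of all rows at that limit. EdgeR on the recovered reads also called none of the set (0.0% of all rows), and 9 of the 71 had an unadjusted p under 0.05, beside 8.45% of all rows. DESeq2 called none of the set, beside 0.0878% of all rows, and 10 of the 71 had an unadjusted p under 0.05, beside 7.75%. The smallest adjusted p of any of the 71 with limma was 0.649. Limma with sample weights gave 15 of the 71 (21.1%) at an unadjusted p under 0.05, beside 13.1% of all rows.

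The log2 difference, acrolein minus air, was above 0 for 47 of the 71 rows (66.2%), beside 48.8% of all rows tested. Its median was 0.15, beside -0.01 over all rows, and the middle 50% of the set lay between -0.04 and 0.48. When every library was scaled to the same total, the median of all rows moved to -0.15 and that of the set to 0.0011, with 36 of 71 rows (50.7%) above 0, beside 34.7% of all rows. Relative to all rows the set was then 0.15 higher, against 0.16 before. After quantile normalization the set lay 0.01 below all rows, with 36 of 71 (50.7%) above 0, beside 51.1% of all rows, so the excess of positive differences was seen with the size factors and with equal totals but not after quantile normalization.

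The difference was not spread evenly over levels. Among the 18 rows of at least 1000 CPM, 16 had a log2 difference above 0 and the median was 0.35. The 24 rows between 100 and 1000 CPM had a median of 0.04 with 15 above 0, and the 29 lower rows a median of 0.05 with 16 above 0. These counts come from the fit with size factors only, and are given without the shares of all adrenal rows at the same levels. Of the 10 most abundant rows, 8 were above 0, with log2 differences from -0.02 to 0.97 and standard errors from 0.31 to 0.55. The smallest unadjusted p among these 10 was 0.101 in the limma fit.

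The row of rank 2 had the largest difference of those 10. Its air adrenals ran from 108752 to 259978 normalized counts with a median of 143207, and the acrolein adrenals were at 208070, 393067, 259446 and 424180. The lowest acrolein sample lay below air replicates 2 and 8, so the groups overlapped. Its log2 difference was 0.97 with a standard error of 0.55 and a limma adjusted p of 0.671. The row of rank 1 was closer between groups, from 139120 to 341509 with a median of 188528 in air, and at 184985, 278486, 247030 and 313382 in acrolein. The highest of its 10 values was air replicate 8, where for rank 2 it was acrolein replicate 12.

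The 6 rows at an unadjusted p under 0.05 in limma ranked from 13 to 57, with log2 differences from 0.48 to 0.90. Of these, 1 was among the 18 rows of at least 1000 CPM. The smallest unadjusted p belonged to the row of rank 54. Its air values ran from 176 to 388 normalized counts with a median of 247, and its acrolein values were 476, 311, 438 and 427. Of these, only acrolein replicate 10 lay within the air range. The difference was 0.65 on the log2 scale with a standard error of 0.22 and a limma adjusted p of 0.649. For the row of rank 13, air ran from 14213 to 27543 with a median of 19611, and acrolein was at 27784, 68580, 20722 and 48529. Here 3 acrolein samples lay above every air sample and acrolein replicate 11 lay among them. Across the set, no row had air and acrolein values that did not overlap (0 of 71), beside 1.31% of all rows tested.

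Among members with an adrenal mean of at least 100 normalized counts, the 2 most positive log2 differences belonged to ENSRNOT00000119786 (rank 50, 30.8 CPM in air) and ENSRNOT00000020826 (rank 43, 81.0 CPM). ENSRNOT00000119786 was at 129, 123, 214, 142, 84.0 and 1406 normalized counts in air replicates 2, 3, 5, 6, 7 and 8. In acrolein replicates 9 to 12 it was at 162, 671, 639 and 1128. The single highest adrenal was thus an air sample, replicate 8, and acrolein replicate 9 sat among the other air samples. Its log2 difference was 1.43 with a standard error of 0.69 and a limma adjusted p of 0.660. It was 1.99 without air replicate 8 or without acrolein replicate 9, 1.06 without acrolein replicate 12, 0.93 with edgeR and 0.90 with DESeq2. ENSRNOT00000020826 ran in air from 120 to 2728 with a median of 523, and was at 552, 1720, 2017 and 2200 in acrolein. The same samples were high, air replicate 8 and acrolein replicates 10, 11 and 12. The log2 difference was 1.37 with a standard error of 0.68 and an adjusted p of 0.660. It was 1.83 without air replicate 8 or without acrolein replicate 9, 0.93 without air replicate 3, 0.90 with edgeR and 0.88 with DESeq2.

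The 2 most negative log2 differences belonged to ENSRNOT00000004900 (rank 21, 511 CPM in air) and ENSRNOT00000061201 (rank 37, 180 CPM). ENSRNOT00000004900 was the most variable row of the set, at 643, 13283, 12929, 3166, 669 and 5.90 normalized counts in air replicates 2, 3, 5, 6, 7 and 8. The highest air sample was 2250 times the lowest, where the next largest such ratio in the set was 24.2. In acrolein it was at 826, 845, 32.7 and 203, all inside the air range. Its log2 difference of -2.04 had a standard error of 1.73 and a limma adjusted p of 0.759. It ran from -3.50 without air replicate 8 to -1.05 without acrolein replicate 11, and was -1.32 without air replicate 3, -1.33 without air replicate 5, -3.41 with edgeR and -3.42 with DESeq2. ENSRNOT00000061201 ran in air from 616 to 4109 with a median of 1635 and was at 355, 1069, 1744 and 877 in acrolein. Air replicate 5 was high and acrolein replicate 9 low, and 3 of the 4 acrolein samples lay within the air range. The log2 difference was -0.80 with a standard error of 0.49 and an adjusted p of 0.688, and was -0.51 without air replicate 5 and -0.37 without acrolein replicate 9.

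**Figure D3:**
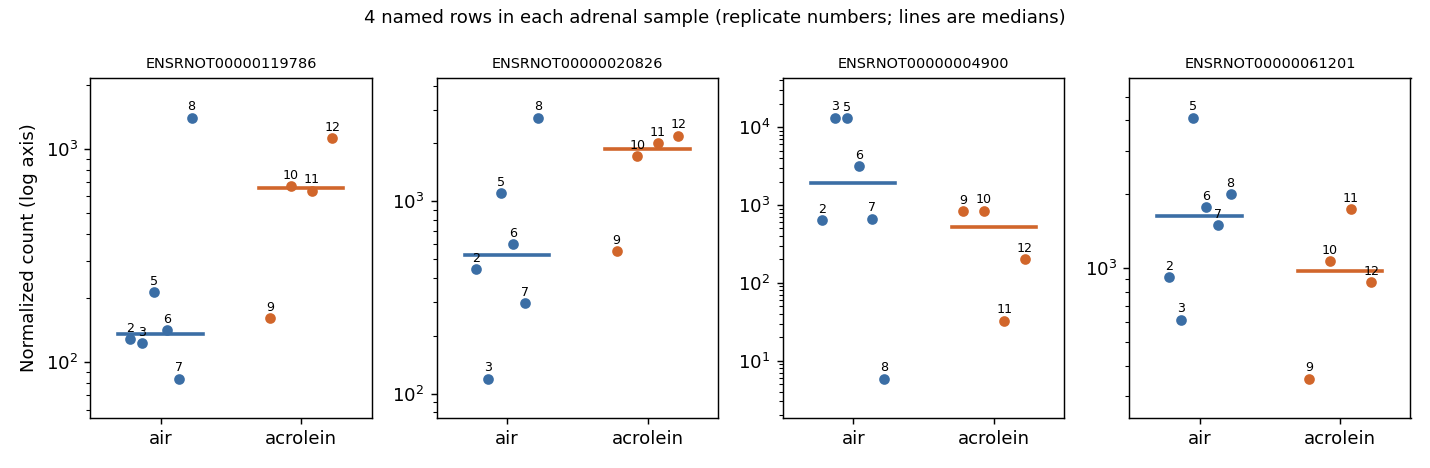
Normalized counts (vertical, log axis) of the 4 named adrenal-restricted rows in each adrenal sample, numbered by replicate, with lines at group medians. In every panel the groups overlap, and air replicate 8 is the highest air sample for ENSRNOT00000119786 and ENSRNOT00000020826 and the lowest for ENSRNOT00000004900.

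Air replicate 8 bore on the comparison as a whole. It was the highest air sample for 30 of the 71 rows, ahead of replicate 2 with 15, and lay at or above the median of the acrolein samples for 42. Without it, 21 of the 71 rows (29.6%) were at an unadjusted p under 0.05, beside 12.3% of all rows. Of the 21, 19 were higher in acrolein, beside 5.81% of all rows. Limma still called none (0.0% of all rows). The median log2 difference of the set was then 0.18. The 9 other fits that each left out 1 adrenal gave from 2 to 10 rows at an unadjusted p under 0.05. These were 2.82 to 14.1% of the set, beside 4.2 to 10.4% of all rows. The lowest count was 2 without air replicate 6 (2.82%, beside 5.34% of all rows). It was 3 (4.23%) without air replicate 3, acrolein replicate 10 or acrolein replicate 12, beside 5.55, 4.2 and 4.34% of all rows. The highest of the 9, 10 rows (14.1%), came without acrolein replicate 9, beside 9.3% of all rows. With air replicate 8 set aside, 2 rows of the set (2.82%) had groups that did not overlap, beside 4.45% of all rows. Nothing in the labels sets air replicate 8 apart from the other air adrenals, and its library of 8389756 reads lay within the range of the others.

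**Figure D4:**
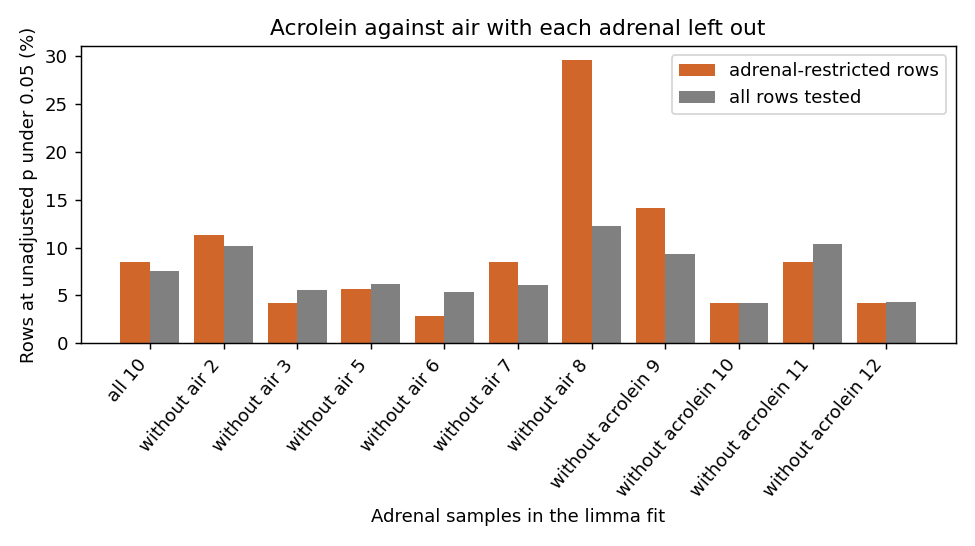
Share of adrenal-restricted rows (orange) and of all rows tested (grey) at an unadjusted p under 0.05 in limma, in percent, with all 10 adrenals and with each adrenal left out. The orange bar is 29.6% beside 12.3% without air replicate 8, and from 2.82 to 14.1% in the other fits.

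The spread among adrenals of the same group was set beside that of all rows past the same minimum, which were not matched for level. Over the 69 members past a mean of 100 normalized counts, the SD of log2 values among air adrenals had a median of 0.51, beside 0.32 over all 9010 rows past that level. Among acrolein adrenals, which had not chosen the rows, the medians were 0.45 and 0.31. The ratio of the highest to the lowest air sample had a median of 2.55 over the 71 rows, and 6 rows reached at least 10.

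The co-variation of the 69 rows among adrenals was described with 2 groups, cut from average linkage on the correlations over the 6 air adrenals. One group held 61 rows and the other 8, of ranks 21 to 71. In the 4 acrolein adrenals, which the grouping had not used, the median pairwise r was 0.35 within the larger group and -0.38 between the groups, beside 0.31 and -0.27 in air. The smaller group had a median r of 0.49 in air and -0.05 in acrolein. With complete linkage the acrolein value of the smaller group, then of 21 rows, was 0.33, and on log2(CPM + 1), with 22 rows, 0.55. Each acrolein r rests on 4 samples that share their libraries, and the values are descriptions.

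Over all 10 adrenals the 2346 pairs of rows had a median r of 0.19, with 62.6% above 0, and the median was 0.17 after the mean of each exposure group had been removed. A principal component analysis placed 59.1% of the variance on the first component, of which ENSRNOT00000004900 alone supplied 43.4%. With each row scaled to the same variance, the first component held 38.7%. Sample scores on that component were 6.98 for air replicate 8 and 0.40 for air replicate 2, and negative for the other 4 air samples, down to -6.96 for air replicate 5. The acrolein scores were -2.98, 3.52, 3.14 and 7.51 for replicates 9 to 12. The main axis of variation thus set air replicate 8 with acrolein replicates 10, 11 and 12, and acrolein replicate 9 with the air samples of negative score.

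**Figure D5:**
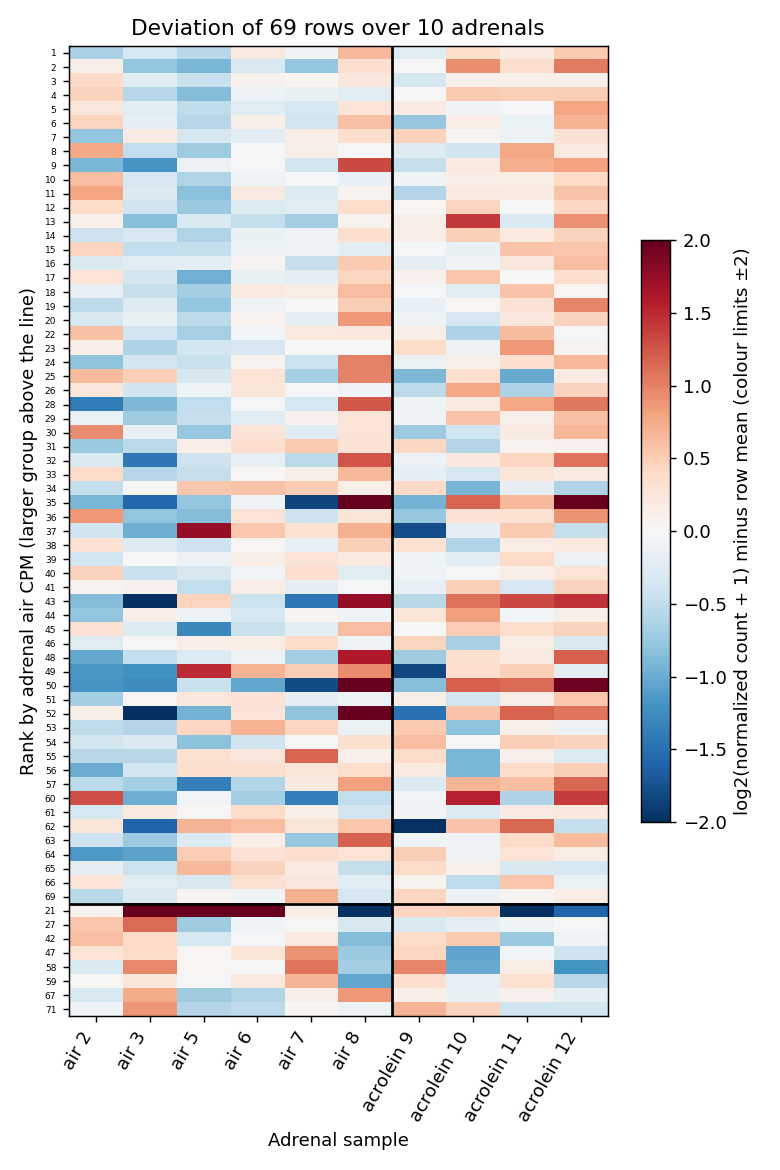
Deviation of log2(normalized count + 1) from the mean of each row over 10 adrenals (colour, limits ±2), for 69 adrenal-restricted rows labelled by rank of adrenal air CPM, with 61 rows of the larger group above the horizontal line and 8 of the smaller below, and air samples left of the vertical line. Air replicate 8 and acrolein replicate 12 are red in many rows, and air replicates 3 and 5 blue.

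Rows restricted to adipose tissue were measured in the adrenals beside these values, since adipose was the highest other tissue of ENSRNOT00000004900. The 47 adipose-restricted rows summed to 3149, 7216, 5397, 3321, 1298 and 762 CPM in air replicates 2, 3, 5, 6, 7 and 8, and to 4016, 2959, 820 and 906 CPM in acrolein replicates 9 to 12. In adipose tissue itself they summed to 58661 CPM on average in air. The level was thus lowest in air replicate 8 and acrolein replicates 11 and 12, and highest in air replicates 3 and 5. The corresponding sums in adrenals ran from 1195 to 3058 CPM for liver-restricted, 610 to 902 for muscle-restricted, 452 to 648 for lung-restricted, 69.4 to 144 for nasal-restricted, 16.7 to 74.2 for hippocampus-restricted and 9.56 to 39.0 for hypothalamus-restricted rows.

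ENSRNOT00000004900 followed the adipose-restricted level over the 10 adrenals (Pearson r = 0.90, permutation p = 0.00012, adjusted p = 0.0012; Spearman rho = 0.92, permutation p = 0.00064, adjusted p = 0.0032). Adjustment was over 10 relations, chosen after the values had been seen. Without air replicate 8 and acrolein replicate 11, the samples farthest from the median, r was 0.84, and among the 6 air adrenals it was 0.92. ENSRNOT00000119786 and ENSRNOT00000020826 followed each other (r = 0.89, permutation p = 0.00061, adjusted p = 0.0030; rho = 0.96, permutation p = 0.00007, adjusted p = 0.0007), with r = 0.84 without air replicate 8 and acrolein replicate 12 and 0.83 in air alone. Both rows had been picked for a large positive difference between acrolein and air in these same adrenals. That choice favours a positive r, so the permutation p of their relation carries no separate weight. Against the adipose-restricted level the r of these 2 rows was -0.65 and -0.65, with adjusted permutation p of 0.077 for each. Without air replicate 8 and acrolein replicate 11 it was -0.42 and -0.45. The other 6 relations among the named rows and that level had adjusted permutation p of at least 0.071 for r.

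Across the set, 56 of the 69 rows (81.2%) correlated negatively with the adipose-restricted level, beside 57.3% of 8941 other rows of at least 100 normalized counts. As shares of 1 library, the adrenal-restricted and adipose-restricted rows are not free of each other. With the log2 adipose-restricted level as a covariate in limma, a fit added after the data were seen, the log2 difference of ENSRNOT00000004900 went from -2.04 to -0.36, that of ENSRNOT00000119786 from 1.43 to 0.97 and that of ENSRNOT00000020826 from 1.37 to 0.92, while that of ENSRNOT00000061201 went from -0.80 to -1.01. The median of the set was then 0.10 with 4 rows at an unadjusted p under 0.05 (5.63%), beside 6.62% of all rows, and limma called none (0.0% of all rows). The part of adipose transcripts in the adrenal differences was not tested beyond these values.

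Outside the adrenal, each tissue was tested within its own table, and the air samples of each had entered the choice of rows. Limma called none of the set in lung (0 of 70 tested, beside 0.00499% of all rows), adipose (0 of 65, 0.0%), muscle (0 of 67, 0.0%), hippocampus (0 of 70, 0.0%) or hypothalamus (0 of 71, 0.0%). At an unadjusted p under 0.05 limma gave 3 rows in lung, 2 in adipose, 0 in muscle, 5 in hippocampus and 2 in hypothalamus, beside 7.67, 2.71, 2.99, 4.31 and 2.69% of all rows. EdgeR called 1 row of the set in lung, beside 0.0299% of all rows, and none in the other 4, where it called 0.0% of all rows. At an unadjusted p under 0.05 edgeR gave 4 rows of the set in lung, 0 in adipose, 5 in muscle, 4 in hippocampus and 4 in hypothalamus, beside 8.91, 3.79, 3.96, 5.46 and 2.79% of all rows.

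In nasal epithelium, the tissue where acrolein first meets the airway, limma called 2 of 70 rows, both higher in acrolein, beside 0.651% of all rows. ENSRNOT00000097912 (rank 60) ran from 1.64 to 27.3 normalized counts with a median of 13.4 in 5 air samples, and from 28.5 to 147 with a median of 91.2 in 6 acrolein samples, so that the groups did not overlap. Its log2 difference was 2.87 with a standard error of 0.62 and a limma adjusted p of 0.088. The other was ENSRNOT00000004900, with at most 1 read in any air sample and at most 6 in any acrolein sample, too few for a fold. EdgeR called neither (0.552% of all rows), with adjusted p of 0.126 and 0.222, and the limma count ran from 0 to 5 with 1 sample left out (5 without acrolein replicate 11, and 0 or 1 in the 10 other fits).

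The row of rank 6, ENSRNOT00000078996, named after its values had been seen, had a difference in nasal epithelium as large as that of the summed level, whose means were 1018 CPM in air and 1668 CPM in acrolein. It averaged 189 CPM in air and 861 CPM in acrolein there, and ran from 51.1 to 318 CPM with a median of 208 in air and from 185 to 1409 CPM with a median of 860 in acrolein. The groups overlapped, and the log2 difference of 2.26 had a standard error of 0.56 and a limma adjusted p of 0.162. In lung the same row ran from 9.23 to 19.3 CPM with a median of 13.9 in 8 air samples and from 24.5 to 58.5 CPM with a median of 44.7 in 6 acrolein samples, without overlap. The lung log2 difference was 1.46 with a standard error of 0.25 and an adjusted p of 0.111 with limma, and 1.55 with an adjusted p of 0.035 with edgeR. In adrenal, at 4827 CPM in air, its log2 difference was -0.02 with a standard error of 0.38.

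In liver, limma called 8 of the 64 rows that passed the filter on zeros, all higher in acrolein, beside 0.197% of all rows called higher. These rows were of rank 1 to 16 in adrenal and included 7 of the 10 most abundant there. Their log2 differences in liver ran from 2.53 to 5.12, and several had air values near 0. The rows of rank 10 and 16 had at most 3 reads in any air liver, against up to 124 and 73 in an acrolein liver. The row of rank 4, with the largest difference, had an air median of 1.80 normalized counts and at most 12 reads in any air liver. The size of such folds is therefore uncertain. EdgeR called 9 rows of the set, 8 of them higher, beside 1.53% of all rows. The row of rank 22 was lower, with an edgeR log2 difference of -0.86 and adjusted p of 0.088. At an unadjusted p under 0.05 limma gave 27 of the 64 (42.2%), 23 of them higher, beside 19.2% of all rows. The limma log2 difference was above 0 for 52 of the 64 (81.25%), beside 49.7% of all rows. Without air liver replicate 5 limma called 17 rows of the set, 15 of them higher in acrolein, and its calls over all rows went from 0.368 to 9.31%. The row of rank 1 ran from 0.31 to 1.70 CPM with a median of 0.62 in 5 air livers and from 6.93 to 53.9 CPM with a median of 15.7 in 6 acrolein livers, where it averaged 20225 CPM in air adrenal. The same row had a log2 difference of 0.34 with a standard error of 0.55 in adrenal. For comparison, ENSRNOT00000119786, ENSRNOT00000020826, ENSRNOT00000004900 and ENSRNOT00000061201 were each at most 2.47 CPM in every liver, and none of the 4 was called there. Their liver log2 differences were also above 0, at 0.43, 1.29, 1.02 and 1.37 in that order, with standard errors from 0.44 to 0.63.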

How the data were processed

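Each of 8 tissue tables gave 1 column per sample. The study's methods, written for liver, give mapping to rn7 in Partek Flow, DESeq2, and removal of genes with few reads and of samples that did not cluster by tissue, and the labels list the same build and tools for adrenal. The deposited signal is taken as a read count divided by a size factor by the authors, each table separately, because each column holds whole multiples of 1 step (100.0% of values within 0.01 of a whole number of reads). All 92 columns were mapped to samples by name. An adipose pair with the same number was averaged. Nothing says beyond the replicate numbers how samples relate to animals, so p-values measure the spread between these samples.

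The members and lists were chosen with earlier results of these data known. Rows above 0 in at least 2 samples were tested with limma 3.58.1 (trended, moderated) in R 4.3.3 on log2(normalized count + 1), 6 air against 4 acrolein adrenals, with Benjamini-Hochberg adjustment over all rows tested. Calls followed the study's limits, an adjusted p no higher than 0.1 with more than a 1.2-fold change, and fold changes on this scale understate the change of low rows. EdgeR 4.0.16 and DESeq2 1.42.0 on recovered reads were alternatives. Named rows were the 2 most positive and 2 most negative log2 differences among rows with a mean of at least 100. Permutation tests were two-sided with 100000 resamples. On simulated adrenal counts, limma recovered 57 of 200 rows changed 2-fold and 187 of 200 changed 4-fold over 19389 and 19353 rows. The changed rows were drawn from all rows above a minimum mean read count rather than from the set. Counting error alone limits a row of few reads. The planned lists by gene symbol, pairs of named genes, promoter motifs and a medulla covariate needed gene symbols and were not run.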

Additional observations from a re-analysis of the deposited data

Results flagged for a closer look

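Of 28 groups of values examined (summed levels by tissue and exposure, the 4 named rows and the adipose- and liver-restricted sums in adrenal), 2 had a sample far from the rest, and chance flags about 1 in 20 groups. ENSRNOT00000119786 stood at 1406 normalized counts in air adrenal replicate 8, where the next highest of the 6 air adrenals was 214. Liver-restricted rows summed to 3058 CPM in air adrenal replicate 2, where the next highest air adrenal was at 1677 CPM.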

How the results depend on the processing

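No adrenal-restricted row was called in adrenal under any of the 25 alternatives run. Over all rows, limma called 0, or 4 without a filter on zeros, 1 without the trend and 0 in every fit with 1 adrenal left out, and DESeq2 called 18 of 20508. The 6 rows of the set at an unadjusted p under 0.05 became 15 with sample weights (13.1% of all rows). With DESeq2 they were 10 (7.75%), and with 1 adrenal left out 2 to 21 (4.2 to 12.3%). Among the 73 rows chosen from the acrolein samples (added after seeing the data) they were 11, beside 7.54% of all rows. Choosing rows by acrolein CPM favours positive differences, as choosing by air CPM favours negative ones, so the 11 carry no separate weight. The median log2 difference of the set was 0.09 to 0.26 with 1 adrenal left out and 0.30 in the rows chosen from the acrolein samples. It was 0.0040 after quantile normalization and 0.0011 with equal totals. It moved by less than the 0.22 SD of sample medians in all 23 alternatives. That limit was wider than the median of 0.15 itself, so staying within it does not show that the difference held. The set held 136 rows at a ratio of 5, 40 at a ratio of 20, and 66 to 72 with 1 air adrenal left out. The smaller co-variation group held 21 rows with complete linkage, 22 on log2(CPM + 1) and 1 among rows of mean at least 1000, so its membership depended on the method, and the cause was not tested.

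In nasal epithelium 2 calls became 0 with edgeR and 0 to 5 with 1 sample left out: 0 without air replicate 2, 5 or 8 or acrolein replicate 9, 10, 12 or 15, 1 without air replicate 4 or 6 or acrolein replicate 14, and 5 without acrolein replicate 11. Calls over all nasal rows went from 0.651% to 1.41% without acrolein replicate 11, and were 0.286 to 1.26% in the other fits with 1 sample left out. Lung went from 0 to 1 with edgeR, and 0 to 1 with 1 sample left out (1 without air replicate 6 or acrolein replicate 9 or 13). Calls over all lung rows were 0.0299% with edgeR and 0.00499 to 0.04% with 1 sample left out. Liver gave 8 to 17, with 17 (15 higher) without air replicate 5, where calls over all rows went from 0.368 to 9.31%. The r of -0.07 between ENSRNOT00000004900 and ENSRNOT00000061201 became 0.048 on log2(CPM + 1) and ran from -0.51 to 0.13 with 1 adrenal left out, changing sign without air replicate 3 (0.10), air replicate 8 (0.13) or acrolein replicate 11 (0.0047).

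No paired analysis was possible because replicate numbers 2 to 8 were air adrenals and 9 to 12 acrolein adrenals, with none shared. The settings that need gene symbols were not run. With 6 against 4 samples, limma recovered 57 of 200 simulated 2-fold changes in adrenal, so changes of that size can go uncalled, and 4-fold changes far less often (187 of 200 recovered). The changed rows were drawn from the whole table, where the median SD of log2 in air was 0.32, beside 0.51 in the set. Recovery for the adrenal-restricted rows themselves was not simulated.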
